A study of Mus musculus with 2 samples.

Results

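The 45 genes described here encode the DNA replication machinery of the mouse: the proteins that mark and license origins, unwind the double helix, copy both strands, join the fragments and supply the nucleotides. They were listed by name for their function, with earlier results of these data known, and are 45 of the 21938 protein-coding genes on the 19 autosomes, X and Y in GENCODE M21. Chromatin accessibility was measured by DNase-seq, in which DNase I cuts open chromatin and the cuts are sequenced, in whole thymus. The mice were B6CASTF1/J males, 2 months old and with no treatment named in the labels, the F1 hybrid of C57BL/6J and CAST/EiJ, and both animals belong to 1 group as replicates 1 and 2. The labels number the animals separately but give both the same donor identifier, and they were handled as separate animals.

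With a single group of 2 there is no contrast between conditions and no test between samples, so values are given for each replicate and set beside the same value over all genes. The strict peak lists held 62230 peaks in replicate 1 and 66839 in replicate 2 after overlapping entries were joined. A promoter score is the highest deposited signal score of a peak within 1000 bp of any annotated transcription start site (TSS) of a gene, and a promoter is called accessible where a peak lay there. Each score is a whole number of steps, where a step is 0.00741 in replicate 1 and 0.00608 in replicate 2, and the members' peaks held 426 to 3697 steps in replicate 1 and 313 to 3262 in replicate 2. The scale behind the step is not stated, so the depth is unknown and no counting interval is given. Of the T lineage markers, 18 of 18 had accessible promoters, from 2.61 at Cd4 to 14.6 at Lat in replicate 1. Their median mean score was 6.27, against 6.83 over all accessible genes. The B cell genes Cd79a and Ms4a1, the thymic epithelial genes Foxn1 and Psmb11 and 5 of 5 hepatocyte genes were listed at 0. In the same B cell list Pax5 scored 4.87 and 4.08 and Ebf1 5.64 and 4.31. In the thymic epithelial list Aire scored 5.23 and 3.99 and Epcam 1.9 and 1.53. Of the other marker lists, 2 of 6 B cell, 2 of 7 thymic epithelial, 0 of 4 macrophage and dendritic, 2 of 3 endothelial, 2 of 3 fibroblast and 1 of 3 erythroid genes were accessible in both replicates. Tissue was not sorted, and a site open in fewer cells cannot be told apart from one that is less open in each cell.

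Before a cell copies its genome, the origin recognition complex binds origins and, with Cdc6 and Cdt1, loads the MCM ring, which becomes an active helicase when Cdc45 and GINS join it. Polymerase alpha-primase then lays down primers, and polymerases epsilon and delta extend the leading and lagging strands on the sliding clamp PCNA. Many of these genes are classic targets of E2F transcription factors, which are held in check by the retinoblastoma protein in resting cells, and the thymus is known for waves of proliferation among immature T cell precursors.

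The promoter windows of Mcm5 and Orc1 are shown first because each holds an E2F word that overlapped a footprint, a short stretch protected from DNase I, in both replicates. The E2F word was written with 4 spellings, TTTCCCGC, TTTCGCGC, TTTGCCGC and TTTGGCGC, searched on both strands. Sequence is the C57BL/6J reference (GRCm38, the mm10 build), written 5′ to 3′ on the strand of the gene, with E2F words in capitals. The animals also carry a CAST/EiJ allele, which may differ. The Mcm5 window is chr8:75109291-75109590, plus strand, with the annotated TSS at base 279, and has 300 bases. The Orc1 stretch is the first 243 bases of its window, chr4:108579211-108579453, plus strand, with the TSS at base 213.
Mcm5: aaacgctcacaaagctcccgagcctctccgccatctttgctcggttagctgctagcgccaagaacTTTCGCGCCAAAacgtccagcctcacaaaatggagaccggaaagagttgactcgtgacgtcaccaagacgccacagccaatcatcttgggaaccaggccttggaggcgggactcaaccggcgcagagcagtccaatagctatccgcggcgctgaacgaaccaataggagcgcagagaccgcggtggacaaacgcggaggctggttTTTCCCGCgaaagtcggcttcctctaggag
Orc1: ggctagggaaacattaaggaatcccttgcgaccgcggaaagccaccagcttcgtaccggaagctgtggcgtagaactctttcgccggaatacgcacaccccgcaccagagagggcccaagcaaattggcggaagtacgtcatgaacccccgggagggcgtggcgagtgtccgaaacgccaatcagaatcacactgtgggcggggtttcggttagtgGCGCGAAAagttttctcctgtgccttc
In Mcm5, bases 66 to 77 are E2F words on opposite strands that overlap by 4 bases, and they lay within a footprint of bases 61 to 83 in replicate 1 and 62 to 85 in replicate 2. The widest footprint of the window, bases 115 to 182 in replicate 1 and 115 to 181 in replicate 2, covers the cyclic AMP response word TGACGTCA at bases 120 to 127 and a CCAAT word at bases 142 to 146. The last E2F word, at bases 271 to 278, ends at the base before the TSS, where the footprint of bases 276 to 282 in replicate 1 and 275 to 282 in replicate 2 covered its end. In Orc1 the word at bases 217 to 224 is centred 8 bases past the TSS and overlapped the footprint of bases 220 to 226 or 220 to 227 at its last 5 bases. The GGGCGG word of Orc1, at bases 197 to 202, lay inside footprints of bases 190 to 210 and 189 to 210. Footprints took up 56% (replicate 1) and 53.3% (replicate 2) of the Mcm5 window. For the full Orc1 window the shares were 36% and 35.7%, and the medians over all accessible genes were 30.7% and 31.3%. A word in the Mcm5 window could thus meet a footprint through this coverage alone.

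Short sites from other members are shown for their arrangement or for their distance from the TSS, a choice made with their values in view. Mcm2 (chr6:88898678-88898707, minus strand) and Mcm6 (chr1:128359795-128359824, minus strand) hold the same overlapping arrangement as Mcm5. Pole (chr5:110286334-110286359, plus strand) and Pole2 (chr12:69228164-69228189, minus strand) hold the word within 6 bases of a TSS, and Mcm3 (chr1:20820277-20820302, minus strand) holds the other word that overlapped a footprint of both replicates.
Mcm2 site: tggtctagtTTTCGCGCGAAAaccggtggc
Mcm6 site: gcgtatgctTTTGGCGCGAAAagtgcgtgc
Pole site: gtggagagcGCGCCAAAttctccccg
Pole2 site: tcggcggtgGCGCCAAAtcgcgaaca
Mcm3 site: acttccgtgGCGGGAAAacttgggaa

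The promoters of all 45 replication genes were accessible in each replicate, a share of 100%, where 59.0% of all protein-coding genes did. Their median promoter score was 11 in replicate 1 and 8.67 in replicate 2, against 7.69 and 5.88 over the 12935 genes with an accessible promoter. By mean score, 36 of 45 lay above the accessible median of 6.83. Above 10.7, the 75th percentile, lay 19 of 45 or 42.2%, where 25% of accessible genes lie by construction. The lowest mean was 2.53 at Pola1 and the highest 23.6 at Pold1. In replicate 1 the centre of the highest peak lay upstream of the gene for 24 members, in an exon of its untranslated region for 16, in an intron for 4 and in an exon of a noncoding transcript for 1. That peak covered an annotated TSS of its own gene in 40 of 45 members in replicate 1 and 38 of 45 in replicate 2. The shares of these places over all accessible genes are not given, so the counts only describe the members.

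**Figure D1:**
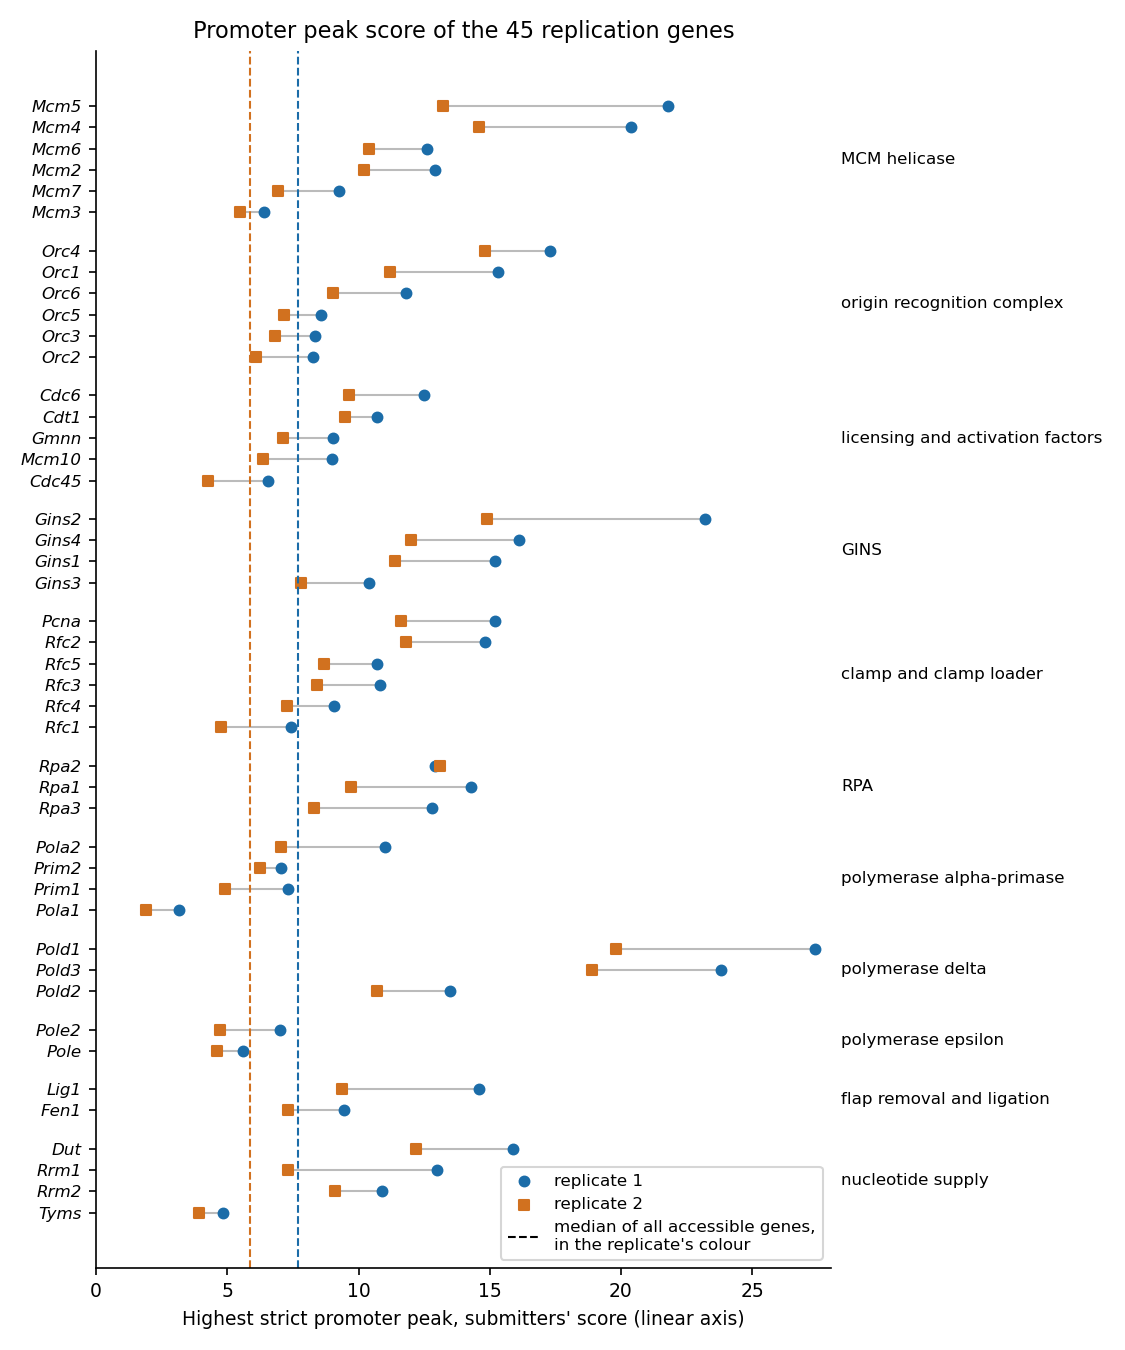
Promoter score of each replication gene in replicates 1 and 2 (points), grouped by complex, on the deposited signal scale. Pold1, Pold3 and Gins2 sit highest and Pola1 lowest, and replicate 2 lies below replicate 1 for 44 of the 45 genes.

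The origin recognition complex, the 6-subunit ATPase that marks where replication may start, had a median mean score of 9.13. Orc4 (ENSMUSG00000026761.12) had the highest, 17.3 in replicate 1 and 14.8 in replicate 2 (mean 16 ± 1.76 SD, n = 2), on an identical peak in both at chr2:48949181-48949520, which covers a TSS and held 7 footprints in each replicate. The centre of that peak lay in an intron. The Orc4 peak nearer the 5′ end of the gene (chr2:48949681-48950260 in replicate 1) scored 3.61 and 1.93. These values were below the promoter score of every other subunit gene in the same replicate. Orc1, the largest subunit and an ATPase, scored 15.3 and 11.2, and Orc6 11.8 and 9.02. Orc2 scored 8.27 and 6.11, Orc3 8.34 and 6.81, and Orc5 8.57 and 7.14. These 3 stood close together, each lower than every replicate value of Orc4 and Orc1.

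Among the licensing and activation factors, Cdc6, the ATPase that helps load the MCM ring, was highest at 12.5 and 9.63 (peak chr11:98907641-98907820 in replicate 1, centred 70 bp upstream of a TSS, with 3 footprints in each replicate). Cdt1, the loading partner of Cdc6, scored 10.7 and 9.5. Geminin (Gmnn), which binds Cdt1 and stops a second round of licensing, scored 9.04 and 7.13, below Cdt1 in each replicate. Mcm10, which helps activate the loaded helicase, scored 8.98 and 6.36. Cdc45, the helicase subunit recruited at firing, was the lowest of the group at 6.53 and 4.25.

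The MCM ring, the motor of the replicative helicase, had a median mean score of 11.5, and its subunits differed nearly 3-fold although the complex holds 1 copy of each. Mcm5 (ENSMUSG00000005410.6) scored 21.8 and 13.2 (mean 17.5 ± 6.05 SD, n = 2) on the peak at chr8:75109321-75109560, with 6 and 4 footprints, and Mcm4 20.4 and 14.6. Mcm2 scored 12.9 and 10.2, and Mcm6 12.6 and 10.4. In each of these pairs of genes the order differed between the replicates. Mcm7 scored 9.24 and 6.93, and Mcm3 was lowest at 6.39 and 5.49, in the 43.7 percentile of accessible genes. The values of Mcm3 lay below those of the other 5 subunits in each replicate. For Mcm7 this rests on peaks at other annotated TSSs, since its peak at the 5′ end scored 3.34 and 2.43, below Mcm3.

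GINS, the 4-subunit helicase cofactor, had a median of 13.7. Gins2 scored 23.2 and 14.9, on a wide peak of 380 bp in replicate 1 (chr8:120589081-120589460) and 440 bp in replicate 2 that overlies its TSS and held 8 and 10 footprints. Gins4 followed at 16.1 and 12, Gins1 at 15.2 and 11.4, and Gins3 at 10.4 and 7.81. The values of Gins1 came from different peaks in the 2 replicates, as did those of Mcm7 and Orc6.

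The clamp PCNA, which holds polymerases on DNA, scored 15.2 and 11.6 on an identical peak in both replicates (chr2:132253181-132253420) that covers a TSS and held 4 footprints in each. Of the clamp loader subunits, Rfc2 came close to it at 14.8 and 11.8, on a peak away from the 5′ end of the gene. With that end as the only TSS, Rfc2 was listed at 0 in both replicates and Lig1 at 0 and 0.62. Rfc3 scored 10.8 and 8.42, Rfc5 10.7 and 8.67, Rfc4 9.06 and 7.27, and the large subunit Rfc1 7.44 and 4.75. The order Rfc2 above Rfc3 and Rfc5, then Rfc4, then Rfc1 was the same in both replicates.

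RPA, the trimer that coats single-stranded DNA, had its 3 subunits close together in replicate 1, with 14.3 at Rpa1, 12.9 at Rpa2 and 12.8 at Rpa3. In replicate 2 they stood at 9.71, 13.1 and 8.32. Rpa2 (peak chr4:132768081-132768340 in replicate 1, with 6 and 5 footprints) was the single replication gene without a lower score in replicate 2. Its mean ± SD was 13 ± 0.101 (n = 2), taken on raw scores, which were lower in replicate 2 at most accessible genes.

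In each replicate, every polymerase delta gene scored above every gene of polymerases alpha and epsilon. Polymerase delta, which extends the lagging strand, had a median of 21.4. Its catalytic subunit Pold1 (ENSMUSG00000038644.14) scored 27.4 and 19.8 (mean 23.6 ± 5.35 SD, n = 2; chr7:44548801-44549020 with 6 footprints in both replicates), the 99.5 percentile of accessible genes. Pold3, an accessory subunit that contacts PCNA, scored 23.8 and 18.9, and Pold2 13.5 and 10.7. Polymerase epsilon, the leading-strand enzyme, had a median of 5.48. Its catalytic subunit Pole scored 5.58 and 4.59, and Pole2 7.01 and 4.72 (chr12:69227881-69228260 in replicate 1, with 8 and 5 footprints). The replicate values of the catalytic subunits Pold1 and Pole did not overlap, with means of 23.6 and 5.09.

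Polymerase alpha-primase, which makes the RNA-DNA primers, had a median of 6.39. Pola2 scored 11 and 7.06 (chr19:5964121-5964340, with 7 and 5 footprints), and the primase subunits Prim1 and Prim2 scored 7.33 and 4.91, and 7.06 and 6.25. The catalytic subunit Pola1 was the lowest of the 45 genes at 3.16 and 1.9, in the 19.6 percentile. Pola1 is on chromosome X, which males carry in a single copy, and the median mean score was 3.66 over the 389 X-linked accessible genes against 7 over autosomal ones. Its mean of 2.53 lay between the quartiles of the X-linked genes, 1.84 and 5.38. The part of the single copy in this value was not tested.

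At the genes that finish the lagging strand, Fen1, the flap endonuclease, scored 9.44 and 7.33, and Lig1, the ligase that seals the fragments, 14.6 and 9.37 (chr7:13278421-13278860 in replicate 1, its centre in an intron). Of the nucleotide supply genes, Dut, which hydrolyses dUTP and keeps uracil out of DNA, was highest at 15.9 and 12.2 (chr2:125247441-125247780 in replicate 1, with 7 and 4 footprints). The ribonucleotide reductase subunits stood at 13 and 7.31 for Rrm1 and 10.9 and 9.11 for Rrm2, so that their order differed between replicates. Tyms, which makes thymidylate, scored 4.84 and 3.91, in the 32.2 percentile and below the other 3 in both replicates.

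Replicate 2 was lower than replicate 1 at 44 of 45 members, where 89.1% of all accessible genes were lower. On the log2 scale the score of replicate 2 minus that of replicate 1 had a median of -0.39 in the members and -0.37 over all accessible genes, so the shift was one of the whole data set. The SD of that difference over the members was 0.17, against 0.30 over all accessible genes. These SDs were not matched for score, and only 1 member lay below 3.36, the 25th percentile of accessible genes. Relative to the all-gene median, the members at the ends were Rrm1 at -0.47 (chr7:102441661-102441900 in replicate 1) and Rpa2 at 0.39, and 0 members lay more than 2-fold from it. The same peak gave the value in both replicates at 42 of 45 members, or 93.3%, near the 96.0% of all accessible genes.

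Every one of the 45 had at least 1 footprint in its highest promoter peak in both replicates, where 99.0% of accessible genes did. The 45 peaks held 236 footprints in replicate 1 and 236 in replicate 2. A peak held 2 to 11 of them in replicate 1 and 3 to 10 in replicate 2, with a median of 5 as over all accessible genes. The most stood at Lig1 in replicate 1, with 11 on a peak 440 bp wide, where replicate 2 had 6. Of the 300-base window centred on the replicate 1 peak, a median of 36.3% of bases in replicate 1 and 36.7% in replicate 2 lay under a footprint, against 30.7% and 31.3% over all accessible genes.

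At 12 of 45 promoters, or 26.7%, the TSS of another coding gene lay within 1000 bp of the peak, where 20.9% of accessible genes had one. In each of the 12 a neighbour was transcribed from the opposite strand, as in 88.1% of the 2705 accessible genes with such a neighbour. Among them, Mcm4 lay beside Prkdc, the catalytic subunit of the DNA-dependent protein kinase of end joining, and Orc1 beside the splicing factor Prpf38a. Cdc45 shared its region with Ufd1, Fen1 with Tmem258, Lig1 with Zswim9, and Orc4 with Mbd5. The others were Mcm7 with Ap4m1, Orc3 with Rars2, Orc6 with Vps35, Rpa1 with Smyd4, Rpa3 with Umad1 and Gm45062, and Pole with Pxmp2. The peak of these genes cannot be assigned to one of the neighbours.

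The 300-base windows of the members had a median GC content of 63.3% and a median of 27 CpG dinucleotides, against 65% and 25 over all accessible genes. An E2F word stood in 15 of 45, or 33.3%, where 4.69% of accessible genes had one. Counting each distinct window once gave 4.53% over all genes. The reversed spelling of the word, which keeps its composition, stood in 2 members, or 4.44%, and in 4.38% of all genes. Over all genes the share with the E2F word ranged from 0.588% to 5.55% between GC bins of 5 points and from 2.94% to 5.69% between 4 equal classes of promoter score. The member share was above each of these.

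Other words stood closer to their background. The CCAAT word of NFY was in 25 members, or 55.6%, against 36.2%. The ETS word CCGGAAGT was in 11, or 24.4%, against 8.84%, and the E-box CACGTG bound by MYC in 7, or 15.6%, against 10.7%. SP/KLF (GGGCGG) was in 32, or 71.1%, against 70.1%. NRF1 (GCATGCGC) was in 4, or 8.89%, against 6.10%, and YY1 (AAGATGGC) in 3, or 6.67%, against 5.70%. The cyclic AMP response word was in 2, or 4.44%, against 3.88%. The cell cycle homology region word TTTGAA, found at many genes that peak in G2 and mitosis, was in 3, or 6.67%, against 7.95%. Words were searched on both strands. The CCAAT and ETS shares were above their background, and the SP/KLF, NRF1, YY1, cyclic AMP and cell cycle homology shares were near theirs. No word contains another, and E2F words can overlap each other on opposite strands. A word is a description of the sequence and does not show binding.

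**Figure D2:**
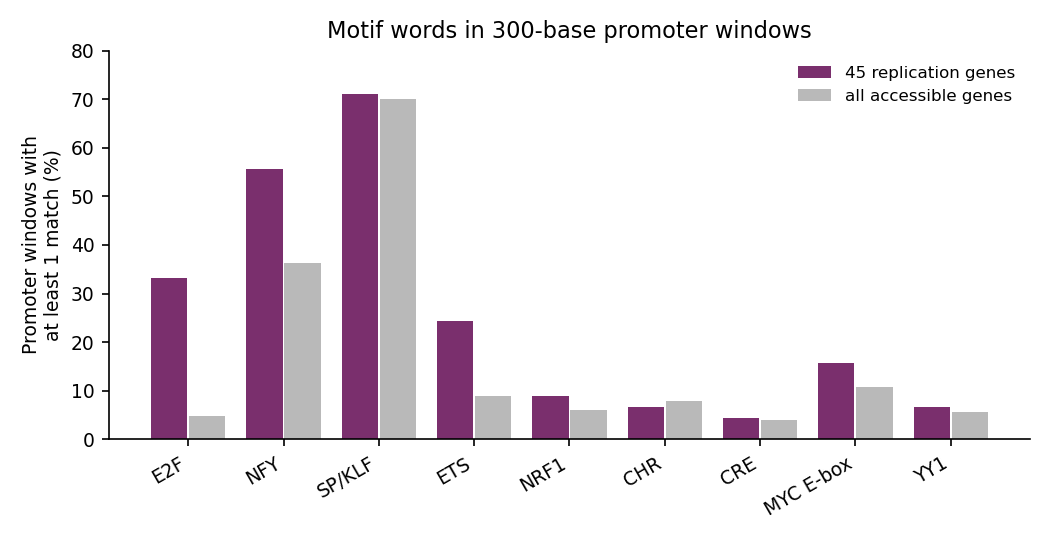
Percent of promoter windows of 300 bases that hold each word, for the 45 replication genes and for the 12935 genes with an accessible promoter. The E2F word stands in 33.3% of the replication genes and 4.69% of all genes, while the SP/KLF word stands in 71.1% and 70.1%.

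The 15 genes with an E2F word are listed by complex as a description with no test, since a complex holds 2 to 6 genes. They were 5 of 6 MCM genes (Mcm2 to Mcm6, all but Mcm7), Orc1 and Orc3 of 6 origin recognition genes, Cdc6, Gins3, Rfc3, Pola1, Pold1 and Pold3, and both polymerase epsilon genes, Pole and Pole2. An absent word holds only for the window searched. That of Mcm7 was centred on the peak chr5:138170961-138171260 and left out its peak at the 5′ end, chr5:138172281-138172520, which scored 3.34 in replicate 1. The RPA, flap and ligation, and nucleotide supply genes had 0. The word was found in genes at both ends of the score range, since Pold1 was the highest and Pola1 the lowest. There were 23 matches in all, 12 of them in MCM genes. TTTCCCGC was found 8 times, TTTGGCGC 8 times, TTTCGCGC 6 times and TTTGCCGC once. Of the 23 matches, 17 lay within 100 bp of a TSS. The median position was 6 bp downstream of it, with a range from 221 bp upstream to 89 bp downstream. Words were searched only in windows centred on promoter peaks, so closeness to a TSS was largely set by the search. The positions of matches over all accessible genes are not given, so these distances only describe the members.

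The overlapping pair on opposite strands seen in Mcm5 was counted in all windows once it had been noticed in these genes. It stood in 0.0232% of accessible genes, namely 3 of 12935 windows, and these 3 were Mcm2, Mcm5 and Mcm6. The pair lay 87 bp downstream of a TSS in Mcm2, 207 bp upstream in Mcm5 and 146 bp upstream in Mcm6. In windows of 1000 bases it stood at 7 of the 12935 genes, 4 of them members, with Gins1 as the addition. On 1000-base windows at the 5′ end of all 21938 genes it stood at 7, of which 3 were members. Among all 51709 regions shared by the replicates it was in 6, of which 3 were at members. These scopes cover the same MCM sites, so that their recurrence adds nothing to the first count. Its presence is a matter of the reference sequence, not of accessibility.

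The E2F words were also set against the footprints, as a description with no test, since 23 matches are few. A footprint of both replicates overlapped 5 of 23 matches, or 21.7%, where 43.3% of the 639 matches of all accessible genes were so placed. With the footprints of replicate 1 taken by themselves the count was 9 of 23, or 39.1%, against 55.1% of all matches, and with those of replicate 2 it was 7, or 30.4%, against 53.2%. A footprint of either replicate overlapped 11, or 47.8%, against 64.9%, and 2 matches, or 8.7%, lay wholly inside a footprint of both, against 14.4%. The size of the gap thus depended on the rule, and 12 matches overlapped none in either. The 5 matches lay in Mcm5, with 3 in its densely footprinted window, and in Mcm3 and Orc1, with 1 each. A match under a footprint was thus present in 3 members, or 6.67%, against 2.09% of all accessible genes. Among the pairs, that of Mcm5 overlapped a footprint in both replicates, that of Mcm2 in replicate 2 and that of Mcm6 in neither. No footprint in this file set says only that none was called at that place. Over all accessible genes the reversed spelling overlapped a footprint of both replicates at 318 of 582 matches, or 54.6%. In the members it did so at 1 of 2. An overlap thus does not by itself show that E2F was bound.

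**Figure D3:**
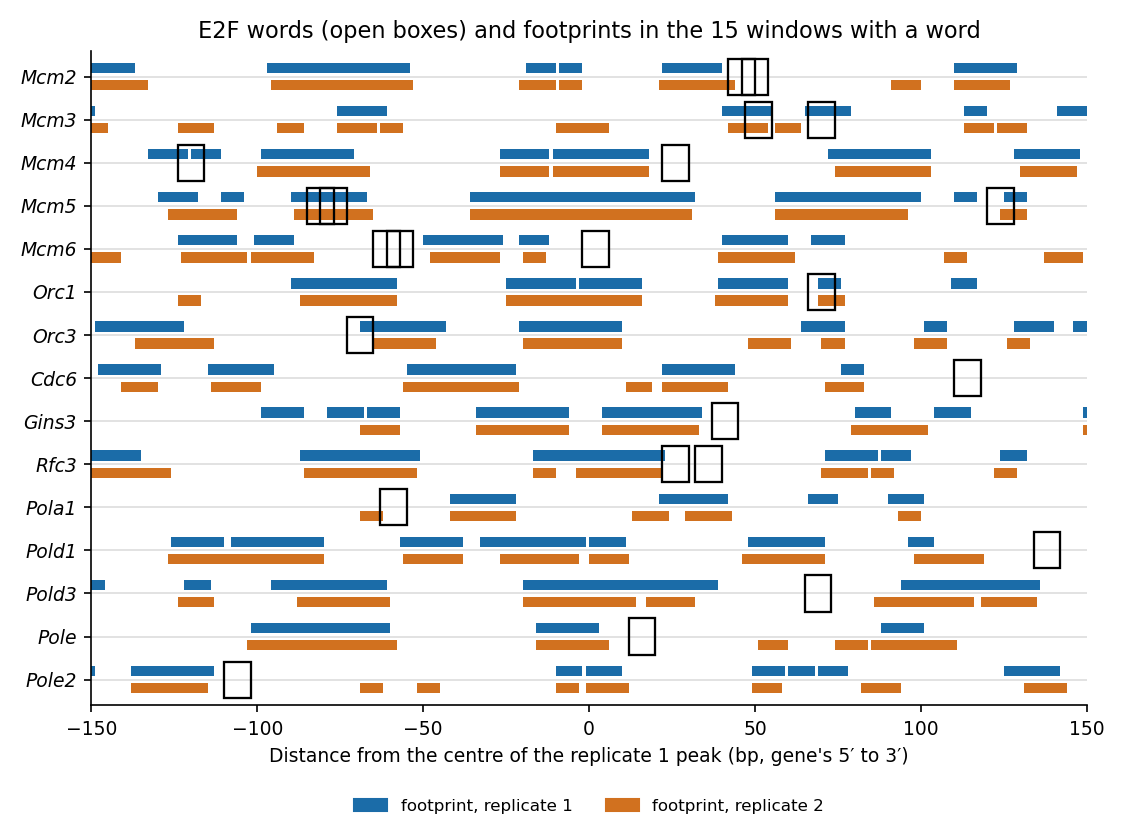
Positions of E2F words and of footprints in the 300-base promoter windows of the 15 replication genes that hold the word, as distance in bases from the centre of the window. Words and footprints of both replicates coincide at Mcm5, Mcm3 and Orc1, and at the other 12 genes no word overlaps a footprint of both replicates.

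Away from promoters, distal peaks were counted as regions shared by the replicates, over 1000 bp from every TSS and within 50000 bp of a TSS of the gene. At least 1 lay near 38 of 45 members, or 84.4%, where 70.5% of protein-coding genes had one. The latter share includes genes without an accessible promoter, and the share over accessible genes is not given. The median number was 2 in the members and 2 over all protein-coding genes, and 3 over accessible genes. No distal peak lay near Mcm3, Mcm4, Orc2, Orc6, Mcm10, Pola1 or Lig1. Together the members had 121 distal peaks with a median score of 1.63, against 1.45 over all 29398 distal regions. Of the 121, 21 lay inside the member itself, 58 inside another coding gene and 42 between genes. Some of the 58, near Cdt1 and Gins2, lay in no other coding gene than the long gene model Gm20388. For 47 of the 121, or 38.8%, the nearest 5′ end of a coding gene was that of the member.

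Cdc6 had the most, with 12. Of these, 8 lay inside the neighbours Wipf2 or Rara. The highest stood 21795 bp from a TSS of Cdc6 inside Rara, the retinoic acid receptor gene, at chr11:98942121-98942400, with 11.7 in replicate 1 and 6.48 in replicate 2. The promoter of Cdc6 scored 12.5 and 9.63, and which gene a distal peak serves cannot be read from the peak lists. Inside Cdc6, a peak 1700 bp past a TSS scored 3.45 and 4.22. Gins2 had 9, with mean scores from 1.34 to 3.77, and its own 5′ end was the nearest for 9 of 9. In the annotation, 5 of these 9 lie within Gse1, which extends over that flank, and each lies within Gm20388, a long gene model that spans the region. Mcm2 had 8, of which 6 lay between genes upstream of it, nearest to Tpra1; the highest scored 4.96 and 4.75 at chr6:88927641-88927840. Rrm2 had 7 and Cdt1 6, and each of those near Cdt1 also lies within Gm20388.

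**Figure D4:**
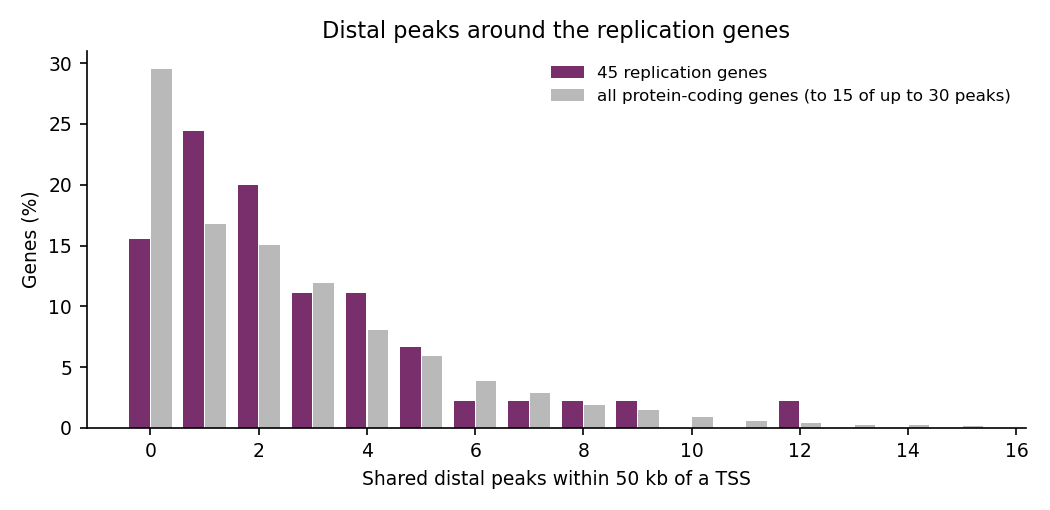
Percent of genes by the number of shared distal peaks within 50000 bp of a TSS, for the 45 replication genes and all protein-coding genes. At 0 peaks stand 7 of 45 replication genes and 6482 of 21938 protein-coding genes, the latter with or without an accessible promoter. Cdc6 stands at 12.

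Another 61 genes of the same pathway, none of them among the 45, were followed for comparison: firing kinases, fork protection and clamp-unloading factors, histone chaperones, nucleotide enzymes, E2F and retinoblastoma family genes and S phase cyclins. All 61 had accessible promoters in both replicates, and 25 of 61 lay above the 75th percentile of scores. The highest were Ccne1, cyclin E1, at 23.2 and 18.5, and Dck, the deoxycytidine kinase of nucleotide salvage, at 19.2 and 15.3. Recql4, a helicase that takes part in origin firing, stood at 19 and 12.8, and Chaf1b, a subunit of the chromatin assembly factor, at 16.7 and 11.8. An E2F word was in 22 of these 61 windows, or 36.1%, near the share of the 45 genes. The lists do not overlap, but both were drawn up for replication and cell cycle functions.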

How the data were processed

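DNase-seq of whole thymus from 2 animals of 1 group was used. The authors deposited peak lists with a signal score per peak, on mm10 per the labels. Score values were whole multiples of 1 step and their scale is not stated. Every deposited footprint has the value 0.01, so that only its position was used. Deposited false discovery rate tracks were not used, while for the aligner, the caller of the peaks and that of the footprints nothing is given in the sources used here. Overlapping entries of a strict list were joined, keeping the highest score. Alternatives compare the median of log2(score + 1), averaged over replicates. TSSs came from GENCODE M21 (Chtf8 is annotated under 2 identifiers and the first was used) and sequence from GRCm38. Motif words were counted in 300-base windows centred on the highest replicate 1 peak. Every member is placed in its complex. Coordinates are given for the highest of each complex, and for the ends of the replicate difference. Members and lists were chosen with earlier results of these data known. Alternatives changed the promoter window, TSS, peak list, pseudocount, reach, overlap, word, and each replicate left out. Some genes outside the members are not reported here. Steps were tested on simulated data. Python 3.11.15, numpy 2.4.6, pandas 2.3.3, pysam 0.24.0 and matplotlib 3.10.9 were used.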

Additional observations from a re-analysis of the deposited data

How the results depend on the processing

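Of 44 alternatives over 7 results, 35 stayed within the stated spread or within 1.5 times the count, 9 moved further and 0 reversed. Some of the 35 were fixed in advance, since a wider promoter window cannot lose a member with an accessible promoter. With the 5′ end of each gene as its only TSS, 43 of 45 members had an accessible promoter and a footprint: Rfc2 was listed at 0 in both replicates and Lig1 in replicate 1. Leaving out each replicate in turn could only return 45 members with an accessible promoter and 45 with a footprint, as all were called in both replicates. The median log2 score was then 3.27 to 3.58 beside 3.46. Its spread of 0.22 was the SD of these same values, so staying within it shows nothing further. The median number of distal peaks was 2, and became 1 at a reach of 25000 bp, 4 at 100000 bp and 3 with the looser list, with 2 to 3 when a replicate was left out (3 without replicate 1). The E2F count of 15 became 24 with the 7-letter word, which 20.4% of all accessible genes held. It was 18 on the replicate 2 peak (4.68% of all genes), 21 in 500-base windows (6.8%) and 13 in windows of 250 bases before to 50 after the 5′ end (4.02%). The 5 E2F matches under a footprint of both replicates became 2 when wholly inside one, 11 with the 7-letter word, 11 with a footprint of either replicate, and 7 to 9 when a replicate was left out (7 without replicate 1, 9 without replicate 2). No paired analysis was possible because the series has 1 group. The unknown depth limits the lowest scores, and 2 replicates limit each spread.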
